A study of Mus musculus with 2 samples.

Results

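The serum amyloid A genes of the mouse, Saa1, Saa2, Saa3 and Saa4, were followed in regenerating liver by RNA-sequencing. These 4 genes were taken by their symbols from a table of 33224 gene symbols, and the family was chosen by its measured difference between the libraries, so the differences given for its members are a description and were not tested. One library came from the liver of wild-type (WT) C57BL/6 mice and 1 from PPARβ-null (KO) mice on the same strain, which lack the nuclear receptor PPARβ encoded by Ppard. All mice were male, labelled 4 month old and fed ad libitum. Livers were taken 48 hr after partial hepatectomy (PH), the surgical removal of part of the liver. This time stands in the results text of the study and not in the labels. Neither the number of livers behind a library nor the design of the null allele is given in the sources used here. With 1 library per genotype there is no spread between mice to set a difference against, and no p-value was computed.

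Serum amyloid A proteins are small apolipoproteins that travel in blood mainly on high-density lipoprotein. Saa1 and Saa2 are the classical acute phase members, which hepatocytes make in large amounts when IL-1, IL-6 and TNF act through NF-κB, STAT3 and C/EBP factors. Saa3 is an inducible member made in macrophages and fat tissue as well as in liver, and Saa4 is the constitutive member that changes little in the acute phase response.

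The family occupied 42.3 kb of chromosome 7 (build NCBIM37, also called mm9; annotation GENCODE vM1). From the lower coordinate upward the genes lay in the order Saa3 at chr7:53967368-53971046, Saa4 at chr7:53983387-53987913, Saa1 at chr7:53995871-53998350 and Saa2 at chr7:54007203-54009684. Saa2 is read from the plus strand and the other 3 genes from the minus strand, so Saa1 and Saa2 start facing away from each other across 8.85 kb. Each gene has 4 exons. The transcripts of Saa1, Saa2 and Saa3 are 605, 610 and 531 bases long, and that of Saa4 is 2015 bases long. Coding parts are 366 bases in Saa1, Saa2 and Saa3 and 390 bases in Saa4. Every member had 1 row in the table, and none was marked as a failed estimate.

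Exon 3 shows how alike the members are, because it is coding throughout and 139 bases long in all 4 genes. It lies at chr7:53996626-53996764 (minus strand) in Saa1, at chr7:54008788-54008926 (plus strand) in Saa2, at chr7:53967959-53968097 (minus strand) in Saa3 and at chr7:53985407-53985545 (minus strand) in Saa4. Each is written 5′ to 3′ along its gene, and capitals mark the bases that differ from Saa1:
Saa1: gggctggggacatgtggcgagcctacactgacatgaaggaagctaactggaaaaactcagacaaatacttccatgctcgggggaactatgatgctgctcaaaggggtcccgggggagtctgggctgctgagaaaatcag
Saa2: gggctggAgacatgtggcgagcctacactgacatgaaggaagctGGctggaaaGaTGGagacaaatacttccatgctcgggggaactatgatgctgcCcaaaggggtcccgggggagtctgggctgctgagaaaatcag
Saa3: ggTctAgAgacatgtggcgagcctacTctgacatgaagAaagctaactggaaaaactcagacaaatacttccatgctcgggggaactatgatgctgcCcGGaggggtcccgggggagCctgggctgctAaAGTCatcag
Saa4: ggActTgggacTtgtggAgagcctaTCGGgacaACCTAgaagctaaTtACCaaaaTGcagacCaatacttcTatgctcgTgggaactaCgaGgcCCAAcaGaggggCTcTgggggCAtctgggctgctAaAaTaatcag
Saa2 differed from Saa1 at 8 of these bases, Saa3 at 14 and Saa4 at 37. Over the whole coding sequence, 95.1% of aligned bases were the same between Saa1 and Saa2. Saa3 shared 79.1% with Saa1 and 78.4% with Saa2, and Saa4 shared between 68.8% and 69.6% with the others.

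Likeness of this degree matters for the values, since a read that fits 2 genes can be counted for either. Reads were 100 bases long, so every 100-base window of each transcript was set against the other members. None of the 506 windows of Saa1 was identical to a stretch of Saa2, and 14 of them (2.77%) came within 2 differing bases, the fewest found. Windows of Saa3 differed from Saa1 by at least 5 bases and from Saa2 by at least 10. Saa4 windows differed from every other member by at least 24 bases. How the authors' counting shared reads that fitted several places is not given in the sources used here, so the split between Saa1 and Saa2 is uncertain and their sum is given beside it.

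**Figure D1:**
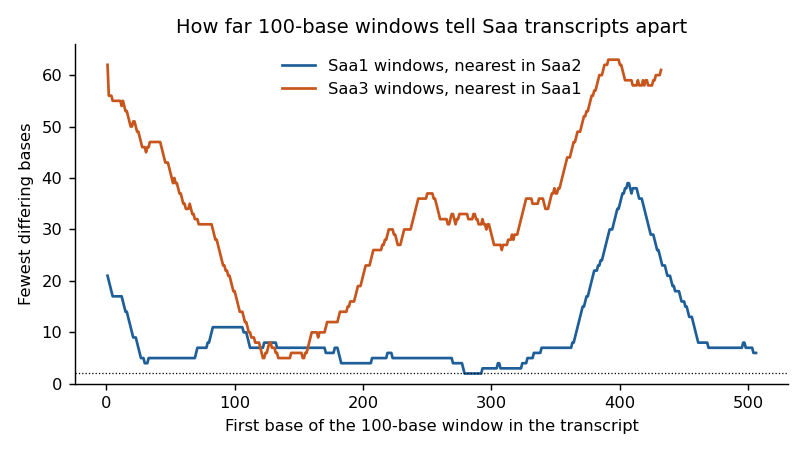
Fewest differing bases (y axis) between each 100-base window of a transcript, placed by its first base (x axis), and the other transcript named in the key. The dotted line is at 2 bases. No gaps were allowed, so inserted or missing bases raise the count, and high stretches need not mean many changed bases. Saa1 windows come within 2 bases of Saa2 only in 14 of 506 windows, and Saa3 windows stay at least 5 bases from Saa1.

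The values are FPKM, which divide the fragments of a gene by the length of its exons and by the mapped fragments of the library. They are thus per length and allow levels of different genes to be set side by side. Saa1, an acute phase apolipoprotein, measured 2839 FPKM in WT and 13137 in KO. Its KO level was 4.63 times its WT level, with a 95% counting interval of 4.59 to 4.66. Saa2, its near copy, measured 2592 FPKM in WT and 14274 in KO. That is a ratio of 5.51, with an interval of 5.47 to 5.55. Both genes were thus abundant in the WT liver and several-fold higher in the KO liver. Summed, Saa1 and Saa2 went from 5431 FPKM in WT to 27411 in KO, a ratio of 5.05 (5.02 to 5.07).

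Saa3, the inducible member of macrophages and fat tissue, measured 5.46 FPKM in WT and 152 in KO. It had the widest difference of the family, 27.8 times higher in KO (23.7 to 32.7). In fragments, an estimated 158 stood behind its WT value and 4449 behind its KO value, which is why its interval is the widest. Saa4, the constitutive member, measured 163 FPKM in WT and 297 in KO. Its ratio of 1.82 (1.78 to 1.85) was the smallest of the family, and it was the member below 2-fold. The intervals cover counting error only and say nothing of the spread between mice. They rest on an estimated depth of 54.3 fragments per FPKM and kilobase in WT and 55.2 in KO, and reads copied from the same molecule in PCR would make them too narrow.

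**Figure D2:**
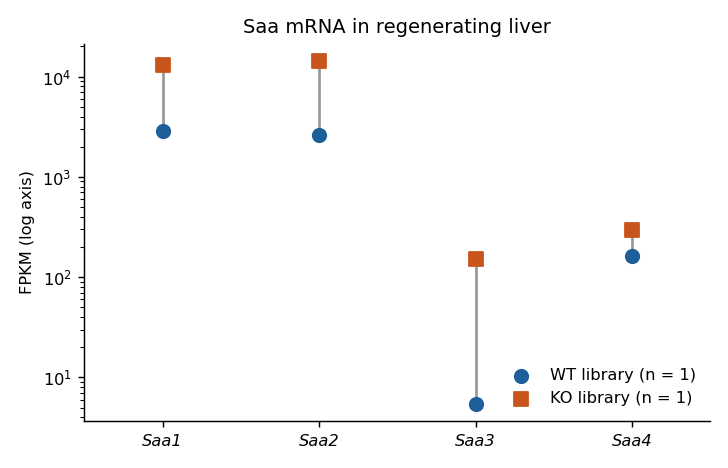
FPKM (y axis, log scale) of the 4 Saa genes (x axis) in WT (circles) and KO (squares), 1 library each, with a line joining the values of a gene. All 4 genes are higher in the KO library, from 1.82 times for Saa4 to 27.8 times for Saa3.

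The order of the levels within a library changed little, but the distances between members did. In WT the order was Saa1, Saa2, Saa4, Saa3. In KO it was Saa2, Saa1, Saa4, Saa3. Saa1 stood at 1.1 times Saa2 in WT and at 0.92 times Saa2 in KO, a swap whose size has no replicate to be judged by. Saa4 stood at 29.9 times Saa3 in WT and at 1.95 times Saa3 in KO, so the pair of low members came close together. Saa1 and Saa4 moved the other way on this scale, from 17.4 times in WT to 44.3 times in KO. Saa1 and Saa2 together made up 97% of the family's FPKM in WT and 98.4% in KO. The share of Saa3 went from 0.0976% to 0.545%, while the share of Saa4 went from 2.92% to 1.06%.

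Against all genes, Saa1 and Saa2 ranked 31 and 36 of 33224 symbols by FPKM in WT. There Saa1 sat between Mup3 (3022 FPKM) and Serpina1e (2761), and Saa2 between Sepp1 (2603) and Gc (2537), all genes of secreted liver proteins. In KO, Saa2 ranked 2 and Saa1 ranked 3, below the mitochondrial gene mt-Co2 (15069 FPKM) and above the haptoglobin gene Hp (10602). Saa4 ranked 488 in WT and 234 in KO. Saa3 moved from rank 7542 in WT to rank 457 in KO, where Hnrnpa2b1 (152 FPKM) and Elovl2 (152) were its neighbours. These ranks leave out 21 loci that the table marks as having too many reads to be estimated, among them albumin (Alb). Over the loci that were estimated, the family took 1.03% of the summed FPKM in WT and 5.05% in KO.

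The 4 genes were read against the 11723 expressed genes, meaning here those whose FPKM averaged at least 1 over the 2 libraries. More than 2-fold higher in KO were 3 of the 4 members, Saa1, Saa2 and Saa3, beside 207 genes or 1.77% of all. The same 3 members were more than 4-fold higher, beside 0.35% of all genes. Higher at any size were all 4 members, beside 24.4% of all genes. No member was lower, whereas 1019 genes (8.69%) were more than 2-fold lower. These shares are the background of a family chosen for this contrast, and nothing is read from them. Among the 11723 genes, 4 had a larger KO/WT ratio than Saa3, 22 than Saa2, 31 than Saa1 and 268 than Saa4. The median gene had a log2 KO/WT of -0.24.

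That shift of the median bears on how the libraries are scaled. Making the upper quartiles equal moved every log2 KO/WT up by 0.204, and centring on the median moved it up by 0.241. Under these, Saa4 reached 2.09 and 2.15 times its WT level and so passed 2-fold. Both scalings raise KO, so they could not turn a member that was already higher. Of the genes more than 2-fold apart, 16.9% were higher in KO as deposited, 29.3% with equal upper quartiles and 31.9% after centring.

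**Figure D3:**
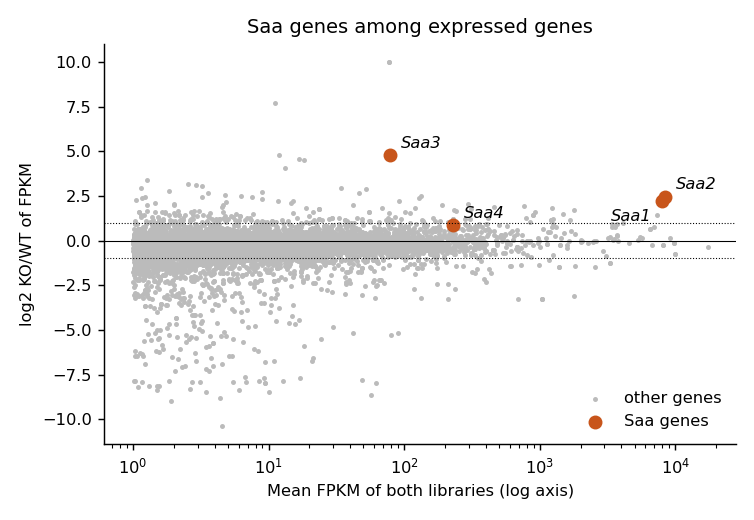
log2 KO/WT of FPKM (y axis) against the mean FPKM of both libraries (x axis, log scale) for expressed genes (average of at least 1) listed above 0 in both libraries, with dotted lines at 2-fold. The Saa genes (large points) lie above 0, with Saa3 at 4.80, Saa2 at 2.46, Saa1 at 2.21 and Saa4 at 0.86.

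Immediately upstream, the members share less than in their coding parts, apart from Saa1 and Saa2. The 250 bases before each annotated start are shown because induction of the family in hepatocytes is known to act through sequence near the start. They lie at chr7:53998351-53998600 (minus strand), chr7:54006953-54007202 (plus strand), chr7:53971047-53971296 (minus strand) and chr7:53987914-53988163 (minus strand), each written 5′ to 3′ toward the gene. Capitals mark matches, on either strand, to letters found in C/EBP sites (TTGCNNAA) or in many NF-κB sites (GGNNNTTTC), where N is any base:
Saa1: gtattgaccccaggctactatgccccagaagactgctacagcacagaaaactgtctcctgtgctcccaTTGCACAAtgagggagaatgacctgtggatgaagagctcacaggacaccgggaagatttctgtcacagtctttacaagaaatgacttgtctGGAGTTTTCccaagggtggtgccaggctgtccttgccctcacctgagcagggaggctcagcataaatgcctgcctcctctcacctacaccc
Saa2: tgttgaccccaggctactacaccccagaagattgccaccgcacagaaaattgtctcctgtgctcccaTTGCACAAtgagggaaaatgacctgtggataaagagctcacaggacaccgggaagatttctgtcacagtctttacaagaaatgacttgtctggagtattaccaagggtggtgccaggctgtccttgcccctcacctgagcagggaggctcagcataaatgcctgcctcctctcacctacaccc
Saa3: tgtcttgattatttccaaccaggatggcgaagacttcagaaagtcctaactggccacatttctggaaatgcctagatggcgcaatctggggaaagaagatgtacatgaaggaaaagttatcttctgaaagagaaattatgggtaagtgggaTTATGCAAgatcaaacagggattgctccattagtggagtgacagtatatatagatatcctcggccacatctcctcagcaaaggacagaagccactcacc
Saa4: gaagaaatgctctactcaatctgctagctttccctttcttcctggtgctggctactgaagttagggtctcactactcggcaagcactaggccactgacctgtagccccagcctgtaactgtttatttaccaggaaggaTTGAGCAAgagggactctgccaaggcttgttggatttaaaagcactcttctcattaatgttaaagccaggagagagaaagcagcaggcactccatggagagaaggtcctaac
The windows of Saa1 and Saa2 had 95.6% of aligned bases in common, and the other pairs had between 62.5% and 66%. TTGCNNAA occurred in all 4 windows. It read TTGCACAA in Saa1 and Saa2, with its first base 182 and 183 bases before the start, and matched on the other strand in Saa3 and Saa4. Of 22367 such windows of annotated genes, 2040 (9.12%) held it. GGNNNTTTC occurred in Saa1 alone, as GGAGTTTTC with its first base 91 bases before the start, and in 12.6% of all windows. Neither TTCNNNGAA, the letters of STAT sites (6.82% of all windows), nor TATAAA (12.3%) occurred in any of the 4. A match describes the letters and is no proof of a site, and a missing match says only that these letters are not in this window. The motifs were picked after the sequences had been looked at. The deposited loci of Saa1 and Saa3 reach 240 and 156 bases beyond the annotated starts, so these loci overlap the windows shown.

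The genes around the cluster were read for the same difference. Within 250 kb of the family lay 16 other symbols or unnamed loci, of which 9 were expressed. Lower in KO were 8 of these 9, a share near that of all expressed genes, of which 75.6% were lower. The nearest on the Saa3 side, Saal1, which shares part of its name but is no family member, measured 2.53 FPKM in WT and 2.01 in KO (0.796 times). On the Saa2 side, Hps5, a gene of lysosome-related organelle formation, measured 5.91 in WT and 5.02 in KO (0.85 times). Gtf2h1, a subunit of transcription factor TFIIH, went from 11.7 to 10.1 FPKM, and Tsg101, of endosomal sorting, from 18.4 to 16.5. The 3 last-named differences were small, and after centring on the median their direction turned. Uevld was the lowest by ratio, at 5 FPKM in WT and 1.51 in KO (0.303 times). Ldha, the lactate dehydrogenase gene 137 kb from Saa3, was the exception, with 549 FPKM in WT and 1133 in KO (2.07 times). Between Gtf2h1 and Ldha, an unnamed locus too scarce to count as expressed measured 0.202 FPKM in WT and 0.652 in KO. Among the expressed genes of the region, the 4 Saa genes and Ldha were higher in KO, with Hps5, Gm9392 and Gtf2h1 between them lower as deposited.

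**Figure D4:**
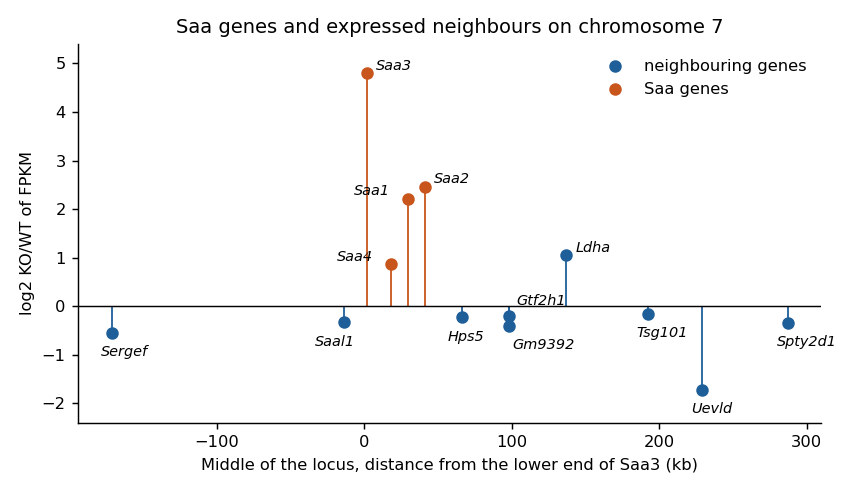
log2 KO/WT of FPKM (y axis) of the Saa genes and of expressed neighbours, placed by the distance of the middle of the locus from the lower end of Saa3 (x axis, kb). The 4 Saa genes and Ldha lie above 0 and 8 neighbours below it as deposited, and Hps5, Gtf2h1 and Tsg101 turn to the other side of 0 after centring on the median.

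Saa expression is driven by cytokines, their receptors and a small set of transcription factors, and these were listed with feedback inhibitors and with carriers and receptors of the proteins. These lists and those below were chosen with earlier results of these data known. The shares set beside them are a description and no test. Of 42 listed genes 41 were found, all but Vimp, and 30 were expressed. More than 2-fold higher in KO were 4 of the 30 (Il1r1, Nfkbiz, Tnfaip3 and Zfp36), beside 1.77% of all genes. Il1a alone was more than 2-fold lower, beside 8.69%. Their median log2 KO/WT was 0.17, beside -0.24 for all genes.

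The 6 inducing cytokines were scarce in both livers and lower in KO, as were 75.6% of all expressed genes. Only Il1a counted as expressed, and its KO value lay below 1 FPKM. Il1a, encoding IL-1α, measured 2.3 FPKM in WT and 0.749 in KO. Il1b, encoding IL-1β, measured 0.474 and 0.149. Il6, the main hepatocyte-activating cytokine, measured 0.0371 in WT and was listed at 0 in KO, and Tnf measured 0.042 and 0.0102. These last levels are close to the 0.0184 FPKM that 1 fragment per kilobase was worth in WT, so their ratios carry little weight. Osm and Lif, IL-6 family cytokines, were as scarce.

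Receptors and signalling chains differed mostly by little. Il1r1, the signalling receptor of IL-1, measured 28.2 FPKM in WT and 56.5 in KO, which placed it almost exactly at 2-fold. Its partner chain Il1rap measured 35.7 and 40.2. The IL-6 receptor chains Il6ra (17.7 in WT, 15.8 in KO) and Il6st (23.2 and 24.1) lay close together between the libraries. Myd88, the adaptor of IL-1 and Toll-like receptors, measured 7.21 and 9.22. Of the 8 genes 6 were higher in KO, beside 24.4% of all expressed genes. All 8 were higher with equal upper quartiles or after centring, where Il6ra and Tnfrsf1a turned. The share of all genes higher under these scalings is not given here, and centring sets the median gene level between the libraries.

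None of the 9 expressed transcription factors differed by 2-fold. Stat3, the mediator of IL-6 signalling, measured 55.3 FPKM in WT and 50.9 in KO. Cebpb, a C/EBP factor of the acute phase response, measured 75.8 and 59.8, and its relatives Cebpa (60.1 and 45.8) and Cebpd (8.67 and 6.95) were also lower in KO. The NF-κB subunit genes Rela (19.1 in both) and Nfkb1 (7.63 and 7.76) were nearly level, and Nfkb2 (2.15 and 2.65) was 1.23 times its WT level. Relb, a further subunit, measured 0.678 and 1.19 (1.76 times). It fell short of a mean of 1 FPKM as deposited and is not among the 9. As deposited, 3 of the 9 were higher and 6 lower, beside 24.4% and 75.6% of all expressed genes. After centring Stat3, Rela and Sp1 turned, leaving 6 higher and 3 lower. Message levels of these factors do not measure their activity.

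All 5 feedback genes were higher in KO as deposited, beside 24.4% of all expressed genes. The other scalings raise KO and so could not turn them. Tnfaip3, whose protein A20 restrains NF-κB signalling, measured 0.504 FPKM in WT and 2.03 in KO (4.02 times). Its WT value lay below 1 FPKM, so Tnfaip3 counted as expressed only through its KO value. Nfkbiz, encoding the NF-κB cofactor IκBζ, measured 4.22 and 10.2 (2.43 times). Zfp36, encoding an RNA-binding protein that shortens the life of cytokine mRNAs, measured 35.4 and 74.4 (2.1 times). Socs3, the inhibitor of IL-6 receptor signalling, measured 9.62 and 18.6 (1.93 times), and Nfkbia, encoding IκBα, 13.4 and 16.4 (1.23 times). More than 2-fold higher were 3 of the 5, Tnfaip3 among them, beside 1.77% of all genes. With equal upper quartiles or after centring these were 4 of the 5, beside 2.65% and 2.85% of all genes.

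Of the carriers and receptors of Saa proteins, 7 were expressed and none of these differed by 2-fold. Apoa1 and Apoa2, the main proteins of the high-density lipoprotein that carries Saa, measured 3061 and 5080 FPKM in WT and 3503 and 5916 in KO. In the WT library Apoa1 was thus just above Saa1, and in the KO library Saa1 stood well above it. Scarb1, the receptor that takes up lipid from this lipoprotein, measured 51 and 80.5. Lcat, which esterifies its cholesterol, was part of a joint locus of 4 genes at 181 and 300, so its own level is uncertain. Abca1, a cholesterol exporter, measured 24.5 and 22.9 and turned after centring. Pltp (6.48 in WT, 4 in KO) and Cd36 (18.1 and 12.9) were lower in KO under each scaling. As deposited, 4 of the 7 were higher and 3 lower, beside 24.4% of all expressed genes higher. The receptor genes Fpr1, Fpr2, Tlr2, Tlr4 and P2rx7 fell short of a mean of 1 FPKM.

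Other acute phase genes, which hepatocytes make under the same cytokines, gave a scale for the family. Of 17 listed genes 15 were higher in KO, beside 24.4% of all expressed genes, and their median log2 KO/WT was 0.87. More than 2-fold higher were 5, beside 1.77% of all genes, and more than 2-fold lower were 2, beside 8.69%. With equal upper quartiles or after centring, 9 were more than 2-fold higher, beside 2.65% and 2.85% of all genes. At these scalings 1 was more than 2-fold lower, beside 6.41% and 6.1%. Lcn2, encoding lipocalin 2, measured 538 FPKM in WT and 1935 in KO (3.59 times). Lbp, encoding the lipopolysaccharide-binding protein, measured 39.8 and 115 (2.89 times), Itih4 784 and 2162 (2.76 times), and Hp 4002 and 10602 (2.65 times). Crp and Apcs, the pentraxins, were 1.63 and 1.88 times higher, and the fibrinogen genes Fga, Fgb and Fgg between 1.68 and 1.92 times. Orm3 (20 in WT, 9.07 in KO) and Cd14 (1.62 and 0.445) were lower. The ratios of Saa1, Saa2 and Saa3 were above that of every listed acute phase gene, while that of Saa4 lay inside their range. This order is a description of 1 pair of libraries, with a list chosen when earlier results of these data were known.

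**Figure D5:**
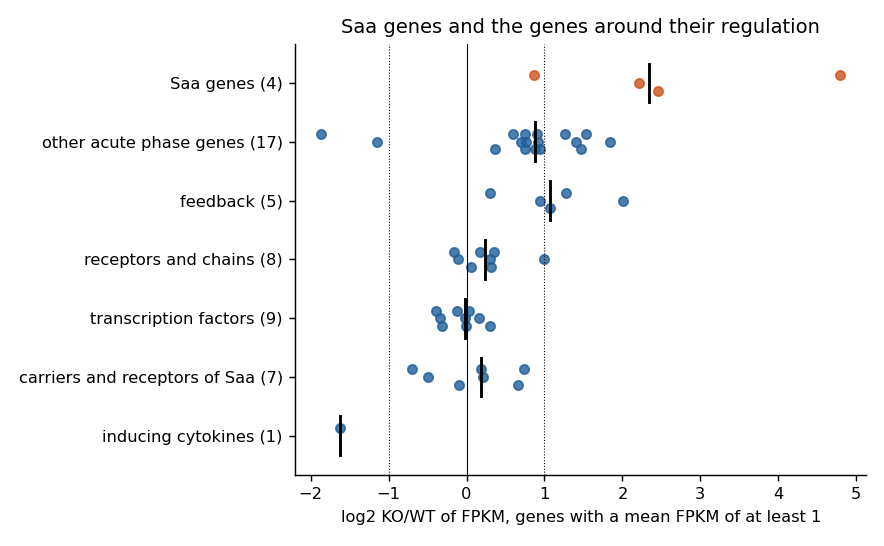
log2 KO/WT of FPKM (x axis) of the Saa genes and of expressed listed genes (points, number per group in brackets), with the group median as a black bar and dotted lines at 2-fold. The medians are 0.87 for other acute phase genes, 1.07 for feedback genes and -0.01 for transcription factors, whose median turns above 0 under each of the other scalings.

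Since Saa3 is made in macrophages and fat tissue as well as in hepatocytes, marker genes of other cells were read beside it. Of 8 Kupffer cell and macrophage markers 7 were lower in KO, beside 75.6% of all expressed genes, and Marco was higher. Their sum was 62 FPKM in WT and 38.6 in KO. The sum of 9 neutrophil markers was 15.1 in WT and 8.03 in KO, with Ly6g, Mpo and Camp at 0 in both. The sum of 5 monocyte markers was 3.65 and 0.982. Adipocyte markers summed to 0.441 in WT and were listed at 0 in KO, Lep being at 0 in both. The 5 endothelial markers summed to 26.6 and 15.7, and the 5 stellate cell markers to 22.2 and 12.5. The 5 lymphocyte markers stayed near 0, at 0.491 and 0.279. Each of these sums was lower in KO, as were 75.6% of all expressed genes, and the most abundant markers weigh most in a sum. Over expressed markers, the median log2 KO/WT was -0.90 for Kupffer cells and macrophages and -0.97 for 3 neutrophil markers. It was -0.85 for endothelial and -0.58 for stellate cells, beside -0.24 for all genes. After centring these medians were -0.66, -0.73, -0.61 and -0.34, with Marco and the stellate cell marker Des higher in KO. Which cells made Saa3 was not tested. The hepatocyte markers, 8 of 9 of them measured, matched the tissue label with a sum of 12982 FPKM in WT and 12024 in KO. Single hepatocyte markers went both ways, with 4 higher and 4 lower in KO as deposited. Cyp2e1 was 2.23 times and Apob 1.56 times its WT level, and Ass1 was 0.368, Cps1 0.465 and Tat 0.534 times. In whole liver, fewer cells of a type and less RNA per cell cannot be told apart.

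Genes with the ratio nearest to that of Saa1 and Saa2 summed were found among 5105 genes averaging at least 10 FPKM, by the distance in log2 KO/WT over the 2 libraries. The nearest were Elovl3, an elongase of very long fatty acids (41.5 FPKM in WT, 217 in KO), and Cxcl1, a chemokine that attracts neutrophils (31.9 and 151). After these came 1300015D01Rik, Cyp4a32 and Cyp4a10, the last an ω-hydroxylase of fatty acids (39.5 and 226). Nearest to Saa3 were C330002G04Rik (0.824 and 23.2), Gm11478 (1.34 and 32.2), Abhd1 (1.5 and 34.9) and 1500017E21Rik (1.48 and 25). Gm8730 (7.91 and 59.9) came last, already 1.88 log2 units away. All of these lay below 10 FPKM in WT and passed the mean of 10 only through their KO values. The same holds for 1300015D01Rik (4.2 and 19.2) and Cyp4a32 (5.41 and 24.7). With 2 libraries, a like ratio is all that these genes were chosen on.

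The gene targeted in the KO mice, Ppard, measured 2.67 FPKM in WT and 2.42 in KO. These values cover the whole locus, do not separate deleted from remaining exons, and so check neither library's label. Every direction given here rests on the labels of the 2 libraries.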

How the data were processed

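Total RNA of 1 WT and 1 KO liver library was sequenced on an Illumina HiSeq instrument with 100-base reads, paired end by the labels and single end by the study's methods. The submitters' processing notes name TopHat2 2.0.0, Cufflinks 1.3.0, Cuffdiff and mm9. The authors deposited 1 Cuffdiff table of FPKM for 38016 loci, with columns of their own comparison (log2 ratio, test statistic, p-value, q-value and a call), none of which was used. Whether FPKM were scaled by quartiles is not given in the sources used here. The 21 loci with status HIDATA were left out, rows of a symbol were summed, and a locus naming several symbols was given to each (846 such loci).

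The members and gene lists were chosen with earlier results of these data known. Genes were named by a fixed rule: the family, Ppard, the listed pathway, acute phase and marker genes, loci within 250 kb, and the genes nearest in ratio or rank. In 3118 single-exon genes, the lowest values per kilobase piled up at the worth of 1 fragment, and the median of the pile (89 genes in WT, 77 in KO, in a window set after the values were seen) gave the depth. Fragments behind a value were estimated from it and the annotated transcript length, and exact binomial 95% intervals of ratios were computed from them, without Cufflinks' effective length, which makes them approximate. Sequences were read from NCBIM37 with GENCODE vM1. The depth estimate and the 2-fold call were tested on simulated data, and the other steps were not. The simulation held counting noise only, with genes either raised 4-fold or unchanged. It thus says nothing of how a 2-fold call fares with the spread between mice. Biopython 1.88 (sequences), matplotlib 3.10.9 (plots), scipy 1.17.1 (intervals), pandas 2.3.3 and numpy 2.4.6 were run under Python 3.11.15.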

Additional observations from a re-analysis of the deposited data

How the results depend on the processing

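The 4 members were higher in KO in 7 of 7 other settings of scaling, summing and pseudocount, but none of these could have turned them. Each member had 1 row, so other ways of summing left its values as they were. An equal pseudocount keeps the order of 2 values. The 3 scalings all raised KO, by 0.0348, 0.204 and 0.241 log2 units. The settings thus show only how far the size of the ratios moves. Their KO/WT ratios ranged from 4.63 to 5.47 for Saa1, from 5.51 to 6.51 for Saa2, from 23.7 to 32.9 for Saa3 and from 1.81 to 2.15 for Saa4. The family's ratio was 5.1 with equal sums, 5.73 with equal upper quartiles and 5.88 after centring on the median, and that of Saa1 and Saa2 summed was 5.17, 5.81 and 5.96.

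The number of genes more than 2-fold higher in KO was 314 of 11829 with equal upper quartiles and 338 of 11862 after centring. It was 139 of 11723 with a pseudocount of 1 FPKM. With a mean FPKM of at least 0.1 it was 439 of 15727, with at least 10 it was 102 of 5109. With any value above 0 it was 1579 of 20574. Of 11723 genes, 492 were above 1.5-fold and 41 above 4-fold. Pathway genes past the fold numbered 6 of 31 with equal upper quartiles or after centring, beside 2.65% and 2.85% of all genes. With a pseudocount of 1 FPKM they numbered 3 of 30, and with a mean FPKM of at least 10 they numbered 2 of 19. Above 1.5-fold were 7 of 30 and above 4-fold 1 of 30. The counts of all genes at these settings stand in the sentences before. The family's share of summed FPKM in KO was 7.75% without the 50 most abundant other genes, 5.33% over loci with a symbol and 4.68% with the largest row of each symbol.

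No paired analysis was possible because each genotype had 1 library, and for the same reason no replicate was left out. Among the members depth limits Saa3 most, and the ratios of genes near 1 fragment per kilobase, such as Il6 and Tnf, rest on few fragments.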
